A study of Homo sapiens with 4 samples.

Results

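HOXB13 peaks around 4 genes of fatty acid synthesis, SREBF1, ACACA, FASN and SCD, and around the corepressor gene NCOR1 were taken from the 2 deposited peak lists of a chromatin immunoprecipitation and sequencing study in LNCaP cells, an established androgen-sensitive prostate cancer line. A peak belonged to a gene when its summit lay within 50 kb of the gene on the hg19 build. By that rule 58 of 68049 peaks of the GSK2879552 list were near the 5 genes, and 1 of 3507 peaks of the vehicle list was, counting autosomes and both sex chromosomes.

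HOXB13 was immunoprecipitated from LNCaP cells given GSK2879552 at 50 µM for 4 hours in RPMI1640 with 5% CSS, or from cells given vehicle. GSK2879552 inhibits LSD1 (KDM1A), an enzyme that removes methyl groups from histones. Which samples had vehicle is known from titles and descriptions only, as 1 treatment text, with the inhibitor, is given for every sample. The 4 samples were lanes, 2 per treatment, called technical replicates in the labels, and the 2 lanes of a treatment shared 1 peak list. No treatment had a replicate, so the values below describe 2 lists, no difference between treatments could be tested, and intervals cover counting error only. Expression was not measured, so neither the cell type nor the activity of these genes could be checked.

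Fatty acid synthesis starts from acetyl-CoA. ACACA (acetyl-CoA carboxylase alpha) makes malonyl-CoA, FASN (fatty acid synthase) builds palmitate from it, and SCD (stearoyl-CoA desaturase) puts a double bond into the saturated product. SREBF1 encodes SREBP1, the sterol-regulated transcription factor that drives these enzymes. NCOR1 encodes NCoR, the corepressor that carries the histone deacetylase HDAC3 to chromatin. HOXB13, a homeobox factor of the prostate, is known to restrain lipogenic genes through HDAC3 and NCoR, and fatty acid synthesis is often raised in prostate cancer.

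The GSK2879552 library appeared to be the deeper one, judged by the background behind its peaks. The pileup (overlapping extended tags at the summit) and the local background behind each deposited fold enrichment and p-value were solved for 100% of peaks. The genome-wide background of 2.79 and 0.443 tags per position came to 201 and 44.3 tags per 10 kb in the GSK2879552 and vehicle libraries, a ratio of 4.54 if that background was taken from the immunoprecipitated libraries themselves.

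HOXB13 peaks near these genes were unevenly spread. Of the 58 GSK2879552 peaks, 26 were at ACACA and 21 at NCOR1, together 81.0% of the total. SREBF1 had 7, and FASN and SCD had 2 each. Part of this follows from gene length, since the windows, gene plus 50 kb on either side, measured 425 kb for ACACA, 285 kb for NCOR1, 126 kb for SREBF1, 120 kb for FASN and 118 kb for SCD. Per Mb of window, however, NCOR1 had 73.6 peaks, ACACA 61.2 and SREBF1 55.7, against 16.7 at FASN and 17.0 at SCD. The GSK2879552 list had 27.5 peaks per Mb on chromosome 17, which carries all of these genes but SCD, and 25.8 on chromosome 10, which carries SCD.

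**Figure D1:**
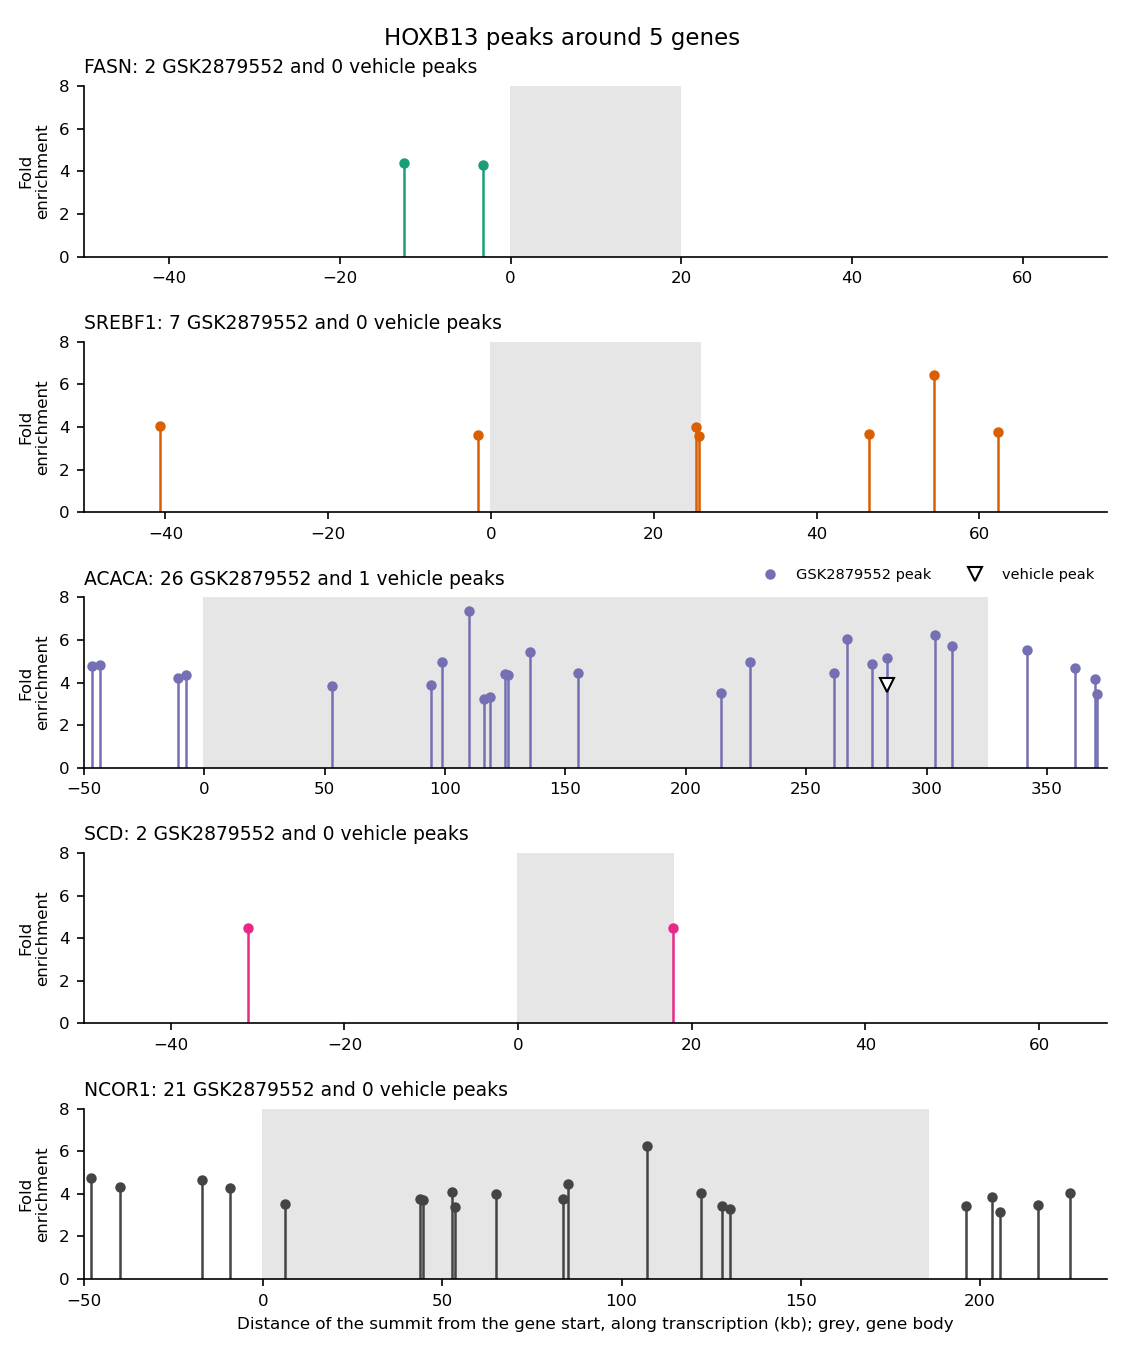
Authors' fold enrichment (vertical axis) of each HOXB13 peak against the distance of its summit from the gene start in kb (horizontal axis, positive along transcription), in 1 panel per gene with the gene body in grey. Filled circles are the 58 GSK2879552 peaks and the open triangle is the 1 vehicle peak, in the 3′ part of ACACA. No circle stands within 1 kb of the gene start used, which is a small part of each window.

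No HOXB13 summit lay within 1 kb of the start of any of the 5 genes, and 2 of the 58 lay within 5 kb. Distances are to the outermost start in the hg19 coordinates used, and genes such as ACACA also have internal starts. These distances cover only a small part of the 1074 kb of windows. The share of the whole list this close to gene starts was not computed. The small counts therefore do not show whether summits were rarer at these starts than elsewhere. Over the 5 genes, 32 summits were in gene bodies, 13 upstream and 13 downstream. Summits were no denser in the bodies of the long genes than in the 50 kb on either side. ACACA had 5.54 per 100 kb of body and 8 per 100 kb of flank, and NCOR1 had 6.47 and 9. The flank values rest on only 4 upstream and 4 downstream summits at ACACA, and on 4 and 5 at NCOR1. SREBF1 had 7.79 per 100 kb of body and 5 per 100 kb of flank, from only 2 summits in the body. FASN and SCD had none in the body. No hg19 exon annotation was used, so introns and exons were not told apart. The hg19 coordinates of neighbouring genes were not used either, so a summit upstream or downstream may lie inside another gene. A neighbour named below gives the direction only.

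The start regions themselves are shown for their base composition and for the motifs searched in them. RefSeq promoters (GRCh38.p14, 250 bases before to 50 after a start) matched 4 of the 5 genes by symbol, all but FASN. Capitals mark CpG dinucleotides, and each sequence is written 5′ to 3′ on the strand of the gene. SREBF1 is at chr17:17836937-17837236 (minus strand), SCD at chr10:100346983-100347282 (plus strand) and NCOR1 at chr17:16215485-16215784 (minus strand).
SREBF1: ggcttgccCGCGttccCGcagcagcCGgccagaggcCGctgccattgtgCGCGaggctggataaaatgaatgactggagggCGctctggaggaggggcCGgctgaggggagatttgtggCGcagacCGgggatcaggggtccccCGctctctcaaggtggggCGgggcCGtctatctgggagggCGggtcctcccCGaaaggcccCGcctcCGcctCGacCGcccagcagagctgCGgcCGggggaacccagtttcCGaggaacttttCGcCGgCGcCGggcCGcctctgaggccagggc
SCD: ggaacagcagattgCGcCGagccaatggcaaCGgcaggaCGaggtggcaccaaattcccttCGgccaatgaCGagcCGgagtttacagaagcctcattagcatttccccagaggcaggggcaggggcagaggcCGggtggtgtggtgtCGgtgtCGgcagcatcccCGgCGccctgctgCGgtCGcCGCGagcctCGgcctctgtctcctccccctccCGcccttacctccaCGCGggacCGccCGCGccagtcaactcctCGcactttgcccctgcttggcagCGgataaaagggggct
NCOR1: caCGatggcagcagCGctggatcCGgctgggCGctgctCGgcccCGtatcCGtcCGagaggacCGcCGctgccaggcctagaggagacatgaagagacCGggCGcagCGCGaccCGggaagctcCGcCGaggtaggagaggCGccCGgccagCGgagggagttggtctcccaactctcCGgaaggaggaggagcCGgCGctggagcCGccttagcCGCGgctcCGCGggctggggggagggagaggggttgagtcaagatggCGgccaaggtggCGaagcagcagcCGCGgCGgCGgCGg

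All of these starts were rich in CpG. The SREBF1, SCD and NCOR1 sequences held 28, 25 and 35 CpG dinucleotides and the outermost ACACA start 53, against a median of 14 over 35116 RefSeq promoters of the same length. Their G+C content was 71%, 66.3%, 72.7% and 82.3%, against a median of 58.7%. The motifs searched, on both strands, were CAATAAA and TCGTAAA, which resemble HOXB13 sites, TGTTTAC, a forkhead motif, and TCACCCCAC, a sterol regulatory element. None of these strings occurred in the 4 outermost starts. Over all promoters they occurred in 4.00%, 0.541%, 3.42% and 0.430%. No match says only that these letters are not in these windows.

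Among the further starts that RefSeq lists, 2 for ACACA and 1 for NCOR1, the NCOR1 one held a match. It is shown as a contrast in base composition: its G+C content was 26.3% and it held 0 CpG dinucleotides. Capitals mark the reverse complement of CAATAAA, at chr17:16194590-16194889 of GRCh38.p14, minus strand. Its position relative to the hg19 peaks was not analysed here.
NCOR1 internal start: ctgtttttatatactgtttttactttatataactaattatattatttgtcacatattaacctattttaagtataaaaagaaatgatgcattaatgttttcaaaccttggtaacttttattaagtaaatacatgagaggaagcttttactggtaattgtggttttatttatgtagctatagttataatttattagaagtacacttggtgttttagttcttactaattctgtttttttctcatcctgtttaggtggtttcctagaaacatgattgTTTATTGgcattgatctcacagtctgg

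SREBF1, the regulator of the pathway, had the summit closest to an outermost gene start. This GSK2879552 peak at chr17:17741859-17742016 had its summit 1.61 kb upstream, on the side of TOM1L2, the next gene upstream in RefSeq. It was weak, with 15 piled-up tags over 3.42 of local background and a fold enrichment of 3.62, and 19.8% of the list had a lower fold enrichment. A pair of peaks sat at the 3′ end of the gene, with summits 0.522 kb and 0.084 kb inside it and 438 bp apart. Their fold enrichments were 4.00 and 3.57. The strongest peak of the locus was beyond the 3′ end, 28.8 kb past it on the side of RAI1, the downstream neighbour.

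That distal peak at chr17:17685739-17686014 had a pileup of 32 over 4.14 tags, a fold enrichment of 6.42 and a −log10 q of 14.6. It stood apart within the locus, since the other 6 fold enrichments ran from 3.57 to 4.04. The second and the third highest were 4.04, at chr17:17780986-17781131, 40.7 kb upstream, and 4.00, at the 3′ end (chr17:17715102-17715286). The 7 peaks had a median of 3.74, lower than the 4.22 of the whole list.

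ACACA, the carboxylase that commits acetyl-CoA to fatty acids, had the most peaks and the strongest one. That peak at chr17:35656646-35656896 lay inside the gene, 110 kb from the outermost start. It had a pileup of 43 over 4.98 tags, a fold enrichment of 7.36 and a −log10 q of 21.8. RefSeq lists further ACACA starts at chr17:37359047-37359346 and chr17:37299718-37300017 of GRCh38.p14. The distances of the hg19 peaks from these were not analysed, so this peak is not shown to lie far from every start. The next were in the 3′ part of the gene. The peak at chr17:35463116-35463591, 304 kb from the start, had a pileup of 29 and a fold enrichment of 6.22, and the one at chr17:35499961-35500203, 267 kb from the start, had 33 and 6.03. The first of this pair was also the widest of all 58 peaks, at 476 bp.

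The 26 ACACA peaks had fold enrichments from 3.24 to 7.36, with a median of 4.57. Medians were 4.67 for the 18 in the gene body, 4.58 for the 4 upstream and 4.41 for the 4 downstream, so these differed little beside the range within the body (3.24 to 7.36). A stretch of 59263 bp without a summit lay inside the gene, between peaks 215 and 155 kb from the outermost start. The longest stretch, 60.4 kb, was little longer and contained that start. It ran from a peak 53.0 kb inside the gene (fold enrichment 3.85) to the peak nearest to the start, 7.44 kb upstream on the side of TADA2A (chr17:35774240-35774379, pileup 16, fold enrichment 4.37).

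The single vehicle peak of the 5 loci was in ACACA. It lay at chr17:35483447-35483572, 283 kb from the start, with a pileup of 5, the lowest called in that list, over 0.540 tags. Its fold enrichment was 3.90 and its q-value 0.0466, just under the largest q-value of the vehicle list (0.0500). It overlapped the GSK2879552 peak at chr17:35483375-35483606, which had a pileup of 22 over 3.48 tags and a fold enrichment of 5.14. That partner ranked below the strongest ACACA peaks, none of which had a vehicle peak.

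FASN, the synthase, had no HOXB13 summit in its body or in the 50 kb downstream of it. Both of its GSK2879552 peaks were upstream, on the side of CCDC57. The nearer, at chr17:80059288-80059438, was 3.28 kb from the start, with a pileup of 19 over 3.66 tags and a fold enrichment of 4.30. The other, at chr17:80068404-80068700, was 12.4 kb from the start, with 16 over 2.86 tags and 4.40. Both lay near the middle of the list, with 52.8% and 55.8% of its peaks lower.

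SCD, the desaturase, had 1 GSK2879552 peak on either side. The peak at chr10:102124569-102124724 spanned the 3′ end of the gene, with its summit 73 bp past it, and was the one nearest to the start, at 17.9 kb. The other, at chr10:102075525-102075702, was 31.2 kb upstream, on the side of PKD2L1. Both had a pileup of 16 over the genome-wide background and so the same fold enrichment, 4.48.

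NCOR1, the corepressor gene, had many peaks but mostly weak ones. Its 21 GSK2879552 peaks had fold enrichments from 3.16 to 6.23, with a median of 3.83. The strongest lay inside the gene, 107 kb from the start, at chr17:16011659-16012034, with a pileup of 30 over 3.98 tags and a −log10 q of 13.4. The next were upstream, on the side of PIGL: chr17:16166708-16166868, 47.9 kb from the start, had a fold enrichment of 4.74, and chr17:16135799-16135937, 17.0 kb from it, had 4.65. The peak nearest to the start was 6.18 kb inside the gene (chr17:16112593-16112829), with a pileup of 19 over 4.68 tags and a fold enrichment of 3.52.

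Local background was uneven along NCOR1. At 4 peaks between 43.8 and 53.5 kb from the start it was 1.93 to 2.19 times the genome-wide value, and at the other 17 it reached 1.68 times at most. These 4 had pileups of 23 to 28 but fold enrichments of only 3.40 to 4.08. RefSeq lists 4 pseudogenes named after NCOR1 and 1 named after SCD. No source used here gives the treatment of reads that match several places, and the part of such copies in these peaks was not tested.

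Peaks of the 5 genes had strengths near the middle of the GSK2879552 list. Their median fold enrichment was 4.25, with quartiles of 3.71 and 4.73, against 4.22, 3.69 and 5.02 over the list. The median pileup was 18 in both, and the median width 180 bp against 199 bp. A fold enrichment of at least 5 was reached by 9 of the 58, a share of 15.5% (exact 95% binomial interval 7.35 to 27.4), and by 26.6% of the list. Of these 9, 7 were at ACACA, 1 at SREBF1 and 1 at NCOR1. The interval treats the 58 peaks as independent, which neighbouring peaks of 5 loci are not. It therefore cannot decide whether the shares differ. A −log10 q of at least 5 was reached by 34 of the 58 (58.6%) and by 54.8% of the list. The highest pileup, 43, was far below the list's maximum of 278.

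**Figure D2:**
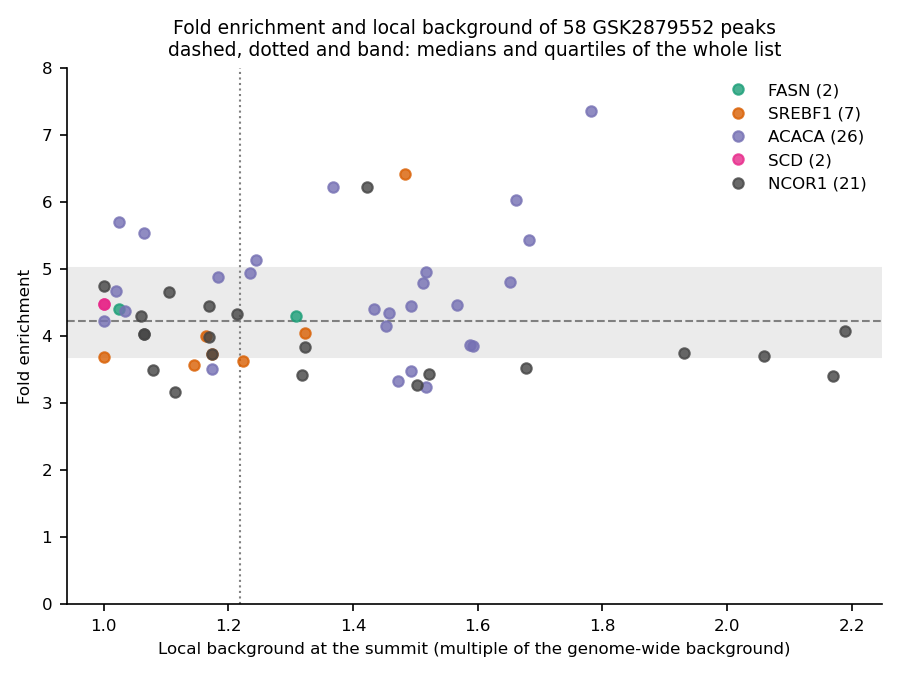
Fold enrichment (vertical axis) against local background in multiples of the genome-wide value (horizontal axis) for the 58 GSK2879552 peaks, coloured by gene. The dashed line and grey band are the median (4.22) and quartiles (3.69 and 5.02) of fold enrichment in the whole list, and the dotted line is its median local background (1.22). Most ACACA peaks stand to the right of the dotted line, and the 4 NCOR1 peaks farthest to the right, at 1.93 to 2.19, lie below the dashed line.

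Windows of equal length tiled over the same chromosome, leaving out those that touched the gene's own window, showed how common such counts were. NCOR1, with 21 peaks, exceeded 281 of 282 windows of chromosome 17, whose median was 8. ACACA, with 26, exceeded 188 of 189 and equalled the other, with a median of 12. SREBF1, with 7, exceeded 588 of 644 (91.3%) and was equalled by 20, with a median of 3. FASN and SCD were at the low side when all peaks were counted. Of 675 windows of chromosome 17, 166 had fewer peaks than the 2 at FASN and 414 had more. Of 1148 windows of chromosome 10, 354 had fewer than the 2 at SCD and 594 had more. Both medians were 3. Neighbouring windows share chromosome domains and are not independent, so these are positions in a distribution and carry no p-value.

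**Figure D3:**
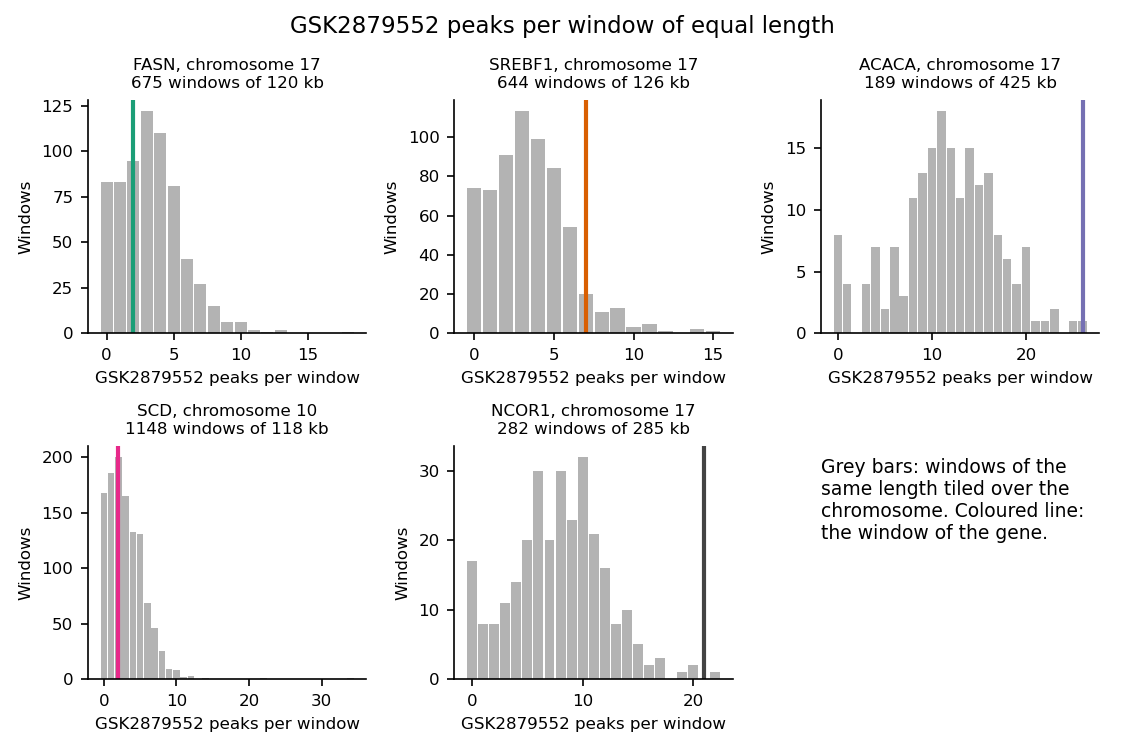
Number of windows (vertical axis) by the number of GSK2879552 peaks they hold (horizontal axis), in 1 panel per gene, for windows as long as that gene's own. The coloured line is the gene: at ACACA (26) and NCOR1 (21) it stands at the right end of the bars, at SREBF1 (7) in the right tail, and at FASN and SCD (2 each) left of the median of 3.

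The high counts at ACACA and NCOR1 were made of different peaks. With only peaks of a fold enrichment of at least 5, ACACA had 7, more than 172 of 189 windows, while NCOR1 had 1, more than 51 of 282 windows and fewer than 172. SREBF1 likewise kept 1, with 263 of 644 windows below it and 169 above. With only peaks of a −log10 q of at least 5, a limit added after the data were seen, ACACA had 21, more than any of the 189 windows (at most 18). NCOR1 had 8, more than 252 of 282 windows, and SREBF1 had 1, more than 146 of 644. The high place of SREBF1 was thus seen at neither limit, and that of NCOR1 was not seen at a fold enrichment of at least 5. FASN and SCD each kept 2 peaks at the −log10 q limit. For FASN 331 of 675 windows then had fewer and 202 more, and for SCD 642 of 1148 had fewer and 287 more. Their low place was thus not seen at the −log10 q limit. Median fold enrichment was also ranked among equal windows with at least 2 peaks. ACACA was above 135 of 177, NCOR1 above only 23 of 257 and SREBF1 above 59 of 497. With 2 peaks each, FASN was above 247 of 509 and SCD above 500 of 794.

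Local background ranked high among equal windows at ACACA only. The median over the peaks of a locus was 1.47 times the genome-wide value at ACACA, above the median in 170 of the 177 equal windows with at least 2 peaks. At NCOR1 it was 1.21 times, above 153 of 257, at SREBF1 1.17 times, above 244 of 497, and at FASN 1.17 times, above 239 of 509. At SCD both peaks were at the genome-wide value. The part of this background in the count at ACACA was not tested.

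Most peaks near these genes had no vehicle peak, as in the list at large. The share with one was 1 of 58, or 1.72% (exact 95% binomial interval 0.0436 to 9.24), and 4.59% of all GSK2879552 peaks had one. This interval too treats neighbouring peaks as independent and cannot decide whether the shares differ. The 1 vehicle peak had a GSK2879552 partner, as did 91.2% of all vehicle peaks. By fold enrichment, a vehicle peak overlapped 0.715% of the list's peaks from 3 to under 4, where 23 of the 58 were, and 1.49% of those from 4 to under 5, where 26 were. It overlapped 4.47% from 5 to under 6, with 4 of the 58, and 12.9% from 6 to under 7.5, with 5. The 58 were thus mostly in classes where a vehicle peak was rare throughout the genome.

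The lower background and pileups of the vehicle list limit what its empty loci show. The genome-wide backgrounds, taken as above with the vehicle value uncertain, differed 6.31 times, and no vehicle peak had a pileup under 5. The tags differed 4.54 times, if the background came from the immunoprecipitated libraries. A lower vehicle background would raise both ratios and could lower the counts that follow. Divided by 6.31, the pileups of 3 of the 58 peaks reached 5, as did 10.4% of the whole list, and divided by 4.54, those of 14 did, as did 26.9% of the list. The ACACA peak with a vehicle partner, at a pileup of 22, reached 5 by neither ratio, so these are expected values and set no limit for a single site. Empty windows were also common in the vehicle list: 83.4% of the windows as long as that of FASN held no vehicle peak, 83.5% for SREBF1, 87.1% for SCD, 68.1% for NCOR1 and 55.6% for ACACA. Over the 5 windows, 1.07 Mb in all, 1 vehicle peak came to 0.931 per Mb, against 1.74 on chromosome 17 and 1.62 on chromosome 10. Treatment and depth cannot be told apart here.

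The limit of 50 kb set these counts. Just inside it were peaks at NCOR1 (2.09 kb from the limit, fold enrichment 4.74) and ACACA (3.51 kb, 4.78, and 4.29 kb, 3.48). Just outside were peaks at ACACA (9.24 kb beyond it, 5.31, and 19.9 kb, 3.92), SREBF1 (19.5 kb, 3.75, and 28.4 kb, 3.73), FASN (29.7 kb, 4.22) and NCOR1 (30.6 kb, 5.01). At SCD the nearest peaks beyond the window were 88.0 kb (6.06) and 619 kb (4.48) away.

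Other genes of fatty acid and sterol synthesis, and the partners of NCoR, were not analysed here, because no hg19 gene coordinates were at hand for them. The sequences of the peaks themselves were likewise not used.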

How the data were processed

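HOXB13 chromatin immunoprecipitation was read from 2 peak lists that the authors deposited, 1 per treatment for its 2 lanes. Per the submitters' processing notes, the tools were MACS2 2.1.2, BWA 0.7.2 and SAMtools 0.1.18 and the build hg19 (also GRCh37), with no role given. No source used here names an input control, a filter or a calling option. The deposited fold enrichment is a ratio of summit pileup to local background, the deposited −log10 p-value and −log10 q-value are at the summit, and the deposited score equals 10 times the −log10 q. The authors' summit offset gave the summit position. These are the authors' values, and fold enrichments were ranked and counted within a list only; solved pileups were scaled between the libraries in the passage on depth.

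Peaks on chromosomes 1 to 22, X and Y were kept (676 and 215 others left out). For each peak the whole pileup k was sought that, with local background λ and fold = (k + 1)/(λ + 1), gave the deposited Poisson −log10 p within 0.001. Tags per 10 kb assume extensions of 139 and 100 bp, the smallest peak widths. Solver and overlap routines were tested on simulated data. Overlap meant at least 1 bp. The genes, windows and lists were chosen with earlier results of these data known. Peaks named were every vehicle peak, the GSK2879552 peak nearest to each start and the 3 of highest fold enrichment per locus; others named were chosen after their values were seen. Planned lists of further pathway genes were not run. Python 3.11.15, SciPy 1.17.1 and pandas 2.3.3 were used.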

Additional observations from a re-analysis of the deposited data

How the results depend on the processing

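Counts depended on the strength demanded of a peak. The 58 GSK2879552 peaks became 9 at a fold enrichment of at least 5, 34 at a −log10 q of at least 5 and 32 in gene bodies alone, and the 1 vehicle peak became 0 at either strength limit. The share with a vehicle peak was 11.1% among the 9. The percentage of equal windows with fewer peaks, at a fold enrichment of at least 5, was 0 for FASN, 40.8 for SREBF1, 91.0 for ACACA, 0 for SCD and 18.1 for NCOR1. FASN and SCD had no such peak, so no window could have fewer. As many as 278 of 675 windows for FASN and 571 of 1148 for SCD had none either. At a −log10 q of at least 5 (added after the data were seen) the percentage was 49.0, 22.7, 100, 55.9 and 89.4 in the order FASN, SREBF1, ACACA, SCD and NCOR1. With a margin of 25 kb it was 44.9 for FASN, 81.1 for SREBF1 and 27.3 for SCD, and with 100 kb 16.3 for FASN, 96.6 for SREBF1, 100 for ACACA and 15.2 for SCD. Leaving out windows without a peak gave 14.0 for FASN and 19.0 for SCD, and windows of chromosomes 1 to 22 gave 34.5 and 35.5. The strength limits keep fewer peaks by construction; the cause of the other shifts was not tested. The other 36 values stayed within their interval or within 1.5 times, among them the median fold enrichment with each locus left out. Some of the shifted values given above were also within 1.5 times, such as 81.1 against 91.3 for SREBF1. A factor of 1.5 alone therefore does not separate them. The share of vehicle peaks with a partner had no value at a fold enrichment of at least 5. No paired analysis was possible because the lanes of a treatment share 1 list and no result comes from a test between samples; leaving out a lane could not be done for the same reason.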

Other observations

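The vehicle peaks nearest to the other 4 genes were beyond the windows. The closest to SREBF1 was 122 kb from the gene (chr17:17861857-17861956, fold enrichment 5.59), to FASN 160 kb (chr17:79876176-79876288, 6.88) and to NCOR1 166 kb (chr17:16284318-16284486, 5.26). For SCD it was 1000 kb away (chr10:103124605-103124742), with a fold enrichment of 11.7 and a −log10 q of 15.6. Each of these overlapped a GSK2879552 peak. None of the 4 lay within 100 kb of its gene.

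Several GSK2879552 peaks came in close pairs. Of the 58, 6 had the next summit of the same locus less than 1500 bp away. The closest pairs were 438 bp apart at SREBF1, 544 bp at ACACA and 917 bp at NCOR1. The share of the whole list with so close a summit was not computed. Close pairs are therefore not shown to be particular to these loci. The ACACA pair lay beyond the 3′ end of the gene, on the side of AATF (chr17:35396150-35396461 and chr17:35396670-35396921). The summits on either side of the 3′ end of NCOR1 were 65.8 kb apart, the largest distance between neighbouring summits within these 5 windows. These peaks were chosen after their values were seen.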
